A study of Mus musculus with 4 samples.

Results

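The mitotic kinesins described here are 10 motor protein genes, Kif2c, Kif4, Kif11, Kif14, Kif15, Kif18a, Kif20a, Kif20b, Kif22 and Kif23, among 19938 genes named on the arrays. They were chosen by name from the platform annotation, with earlier results of these data known. The annotation gave 11 features for them, and a gene with several features was read from the brightest, judged by its 4-array average. MC3T3-E1, a pre-osteoblast cell line from mouse calvaria of C57BL/6 origin, was treated with the antidepressant citalopram at 100 µM, which blocks serotonin reuptake, or left untreated as control. RNA was profiled on Affymetrix arrays after 7 or 3 days, in 4 groups: citalopram at day 7, control at day 7, citalopram at day 3 and control at day 3. All groups came from the same cell line in proliferation medium, with 1% fetal bovine serum in the culture medium per the labels' protocols. Each group has 1 array, so no difference at a single day has a replicate error. The labels do not tell whether an array holds RNA of 1 well or of several.

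Kinesins are motors that use ATP to move along microtubules or to take their ends apart. The mitotic members act when a cell divides: they push the spindle poles apart, move and align chromosomes, correct faulty attachments and build the midzone at which the daughter cells separate. Their transcripts accumulate in G2 and M phase in dividing cells and are low in resting cells. In promoters of such genes a short element called the CHR (cell cycle genes homology region) is bound by the MuvB complex, which represses them in resting cells together with DREAM partners and activates them with B-MYB and FOXM1 later in the cycle. The CCAAT box, bound by NF-Y, is often found upstream of it.

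Promoter sequences, taken from RefSeq (build GRCm38.p6, 250 bases before the annotated start site to 50 bases from it on), were found for 9 of the 10 genes; Kif20a had none in the table. The 6 shown here are those that carry a CHR close to the start site together with a CCAAT box, that carry 2 adjacent copies of the CHR, or that carry neither. Capitals mark TTTGAA (the CHR) and CCAAT on either strand, so that the reverse complements TTCAAA and ATTGG are marked too; the rest is in lower case, 5′ to 3′ on the gene's strand. They are Kif11 at chr19:37376132-37376431 (plus strand), Kif4 at chrX:100625815-100626114 (plus), Kif22 at chr7:127042371-127042670 (minus), Kif23 at chr9:61946750-61947049 (minus), Kif20b at chr19:34922108-34922407 (plus) and Kif18a at chr2:109280488-109280787 (plus).
Kif11: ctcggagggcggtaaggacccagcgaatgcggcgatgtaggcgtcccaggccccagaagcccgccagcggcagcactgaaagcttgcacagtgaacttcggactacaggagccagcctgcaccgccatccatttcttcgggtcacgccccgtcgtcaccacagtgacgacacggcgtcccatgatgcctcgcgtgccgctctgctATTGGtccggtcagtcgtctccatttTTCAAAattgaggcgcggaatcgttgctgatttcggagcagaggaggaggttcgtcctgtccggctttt
Kif4: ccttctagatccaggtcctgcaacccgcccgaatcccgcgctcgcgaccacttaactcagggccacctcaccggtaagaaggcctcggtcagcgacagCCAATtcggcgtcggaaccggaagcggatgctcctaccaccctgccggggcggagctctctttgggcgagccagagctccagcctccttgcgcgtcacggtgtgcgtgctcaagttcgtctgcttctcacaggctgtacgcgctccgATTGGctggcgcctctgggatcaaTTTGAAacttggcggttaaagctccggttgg
Kif22: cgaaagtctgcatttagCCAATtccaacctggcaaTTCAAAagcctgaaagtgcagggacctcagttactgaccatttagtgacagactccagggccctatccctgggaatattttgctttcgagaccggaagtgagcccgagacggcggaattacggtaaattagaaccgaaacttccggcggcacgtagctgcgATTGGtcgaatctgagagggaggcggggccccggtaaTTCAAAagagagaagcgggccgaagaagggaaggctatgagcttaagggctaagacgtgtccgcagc
Kif23: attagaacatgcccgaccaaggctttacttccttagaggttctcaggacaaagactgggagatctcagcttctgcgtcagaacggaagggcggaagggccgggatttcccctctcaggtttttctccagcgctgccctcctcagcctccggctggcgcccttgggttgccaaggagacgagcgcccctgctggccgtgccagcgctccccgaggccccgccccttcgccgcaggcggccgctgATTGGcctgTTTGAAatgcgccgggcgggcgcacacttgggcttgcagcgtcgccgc
Kif20b: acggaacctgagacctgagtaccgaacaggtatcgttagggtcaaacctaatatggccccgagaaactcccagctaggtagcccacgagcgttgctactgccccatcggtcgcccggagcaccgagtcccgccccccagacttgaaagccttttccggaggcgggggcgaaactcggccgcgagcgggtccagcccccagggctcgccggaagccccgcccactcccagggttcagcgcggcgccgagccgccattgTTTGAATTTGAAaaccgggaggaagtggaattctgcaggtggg
Kif18a: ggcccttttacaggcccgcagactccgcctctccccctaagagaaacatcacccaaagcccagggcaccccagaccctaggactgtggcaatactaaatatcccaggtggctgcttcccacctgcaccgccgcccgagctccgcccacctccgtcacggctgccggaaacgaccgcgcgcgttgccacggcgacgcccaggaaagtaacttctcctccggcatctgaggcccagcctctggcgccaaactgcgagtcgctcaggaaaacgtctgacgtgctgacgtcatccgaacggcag

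TTTGAA was present in 8 of the 9 kinesin promoters (88.9%), against 17.9% of all 32851 promoter windows of the same length. In Kif11, Kif15 and Kif22 a CHR began 17 to 19 bases before the start site (offsets of -19, -19 and -17), and in Kif23, Kif20b and Kif4 it began 2, 7 and 19 bases after it. Kif20b carried a second copy directly behind the first, at offset 13. A CHR beginning within 20 bases of the start site, a window chosen after these positions were seen, was present in 6 of 9 kinesin promoters and in 2.22% of all promoters. The start sites that the table gives for Kif2c and Kif14 lie 3852 and 1547 bases inside the outer ends of their annotated genes, and their CHR matches were farther away, at offsets of -103 and -228. The Kif18a window held no TTTGAA and no CCAAT on either strand, which says only that these letters are not in that window.

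CCAAT was present in 5 of 9 kinesin promoters (55.6%), against 37.4% of all promoters, and each of those 5 also held a CHR, a combination found in 6.95% of all promoters. In Kif11 the reversed CCAAT box began at offset -45 and in Kif22 at -54, ahead of a CHR at -19 and -17. In Kif4 and Kif23 it began at -5 and -7, ahead of a CHR at offset 19 and offset 2. The variant TTCGAA was in 0 of the 9 windows, against 1.56% of all promoters. Among transport and other kinesins, 3 of 26 windows held TTTGAA (11.5%), and among the other mitotic kinesins 1 of 6 did (16.7%). A match is a description of the letters and not a measured binding site.

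**Figure D1:**
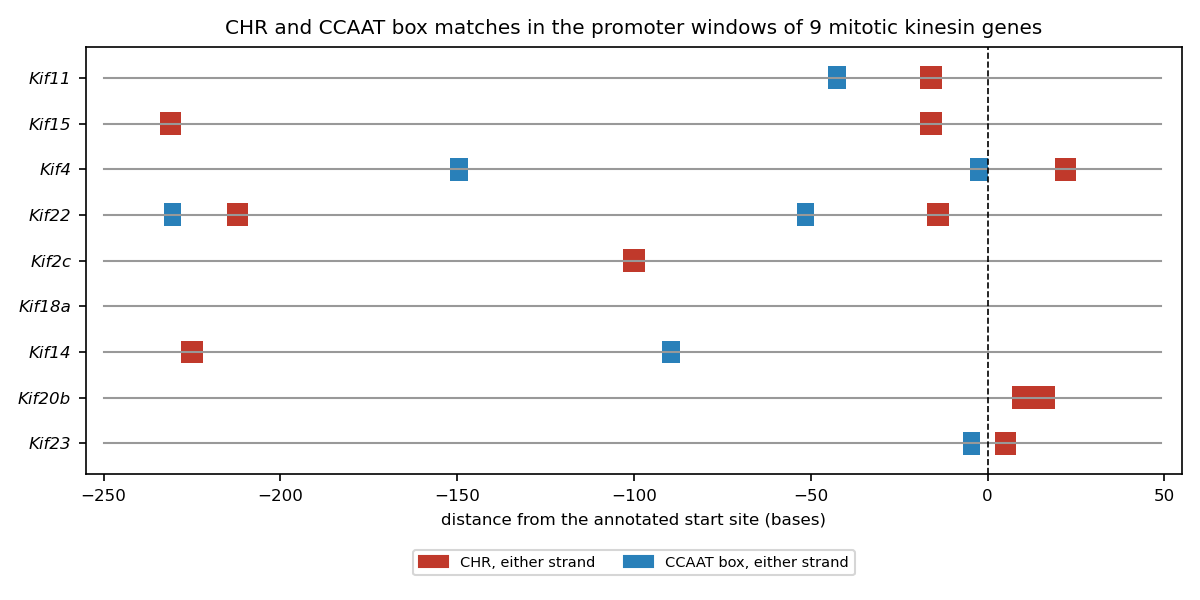
Positions of TTTGAA (CHR, red) and CCAAT (blue) on either strand along the promoter windows of 9 mitotic kinesin genes, with distance from the annotated start site in bases on the x axis and 1 line per gene. Red boxes lie within 20 bases of the dashed start site in 6 genes, and the Kif18a line carries no box.

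All 10 kinesins were lower with citalopram than in control at both days. At day 7 the median log2 difference was -0.60, against 0.01 over all 12167 genes above the floor, and at day 3 it was -0.21, against 0.03 over 12196 genes. The floor is the 40th percentile of genes on an array, 5.95 to 6.01, and a gene was counted when the brighter of its 2 arrays reached it; every kinesin was above it on all 4 arrays. By comparison, 48.7% of all genes were lower by any amount at day 7, 42.3% at day 3 and 22.0% at both days. For each of the 10 kinesins, read from its brightest feature, both citalopram arrays lay below both control arrays. This pattern was shown by 11.6% of the 12415 genes that reached the floor on 1 array or more. With arrays centred on their medians it held for 9, with Kif18a overlapping. The dimmer Kif14 feature did not show it, with 6.75 with citalopram at day 3 against 6.69 in control at day 3. In RNA from whole cultures, fewer dividing cells and less kinesin RNA per cell cannot be told apart.

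Kif11 (Eg5) and Kif15 are plus-end-directed motors that push the spindle poles apart, Kif15 being able to take over part of this task from Kif11. The Kif11 gene lies at chr19:37376382-37421863 and Kif15 at chr9:122951081-123018733 (GRCm38.p6, as for all positions here). Kif11 had a log2 value of 10.97 with citalopram at day 7, against 11.61 in control, and 11.32 with citalopram at day 3, against 11.50 in control. The day 7 citalopram array was thus the lowest of the 4, and the citalopram difference was -0.64 at day 7 (36.0% lower) and -0.19 at day 3 (12.3% lower). Kif15 had 8.71 with citalopram at day 7, against 9.23 in control, and 8.93 with citalopram at day 3, against 9.31 in control. Its differences of -0.52 and -0.38 lay closer together than those of Kif11.

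Kif4 and Kif22 (Kid) are chromokinesins, which bind chromosome arms; Kif4 also shortens the overlapping microtubules of the midzone with Prc1, and Kif22 pushes chromosome arms toward the spindle equator. Kif4 (chrX:100626065-100727271) had 8.83 with citalopram at day 7, against 9.39 in control, and 9.14 with citalopram at day 3, against 9.65 in control. Its difference was nearly the same at both days, -0.55 and -0.52, and at day 3 it was the most negative of the 10, 60th from the lowest among 12196 genes. Kif22 (chr7:127027729-127042467) had 8.86 with citalopram at day 7, against 9.47 in control, and 8.96 with citalopram at day 3, against 9.17 in control. Kif22 was lower by 34.6% at day 7 and by 14.0% at day 3.

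Kif2c (MCAK) removes tubulin from microtubule ends and helps to undo faulty kinetochore attachments, and Kif18a dampens the back-and-forth movement of chromosomes at the spindle equator. Kif2c (chr4:117159633-117182624) had 9.31 with citalopram at day 7, against 10.09 in control, and 9.66 with citalopram at day 3, against 9.85 in control. At day 7 it had the most negative difference of the 10 (-0.78, 41.9% lower), 26th from the lowest of 12167 genes. Kif18a (chr2:109280738-109341749) had 8.73 with citalopram at day 7, against 9.11 in control, and 9.02 with citalopram at day 3, against 9.06 in control. It had the smallest difference of the 10 at both days, -0.38 at day 7 and -0.04 at day 3, and 32.7% of all genes were lower than it at day 3. At day 3 Kif2c was lower by 12.4% and Kif18a by 2.71%.

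Kif14, Kif20a (Mklp2), Kif20b and Kif23 (Mklp1) work at the midzone and in cytokinesis. Kif23 joins Racgap1 in centralspindlin, Kif20a carries the Aurora B complex to the midzone, and Kif14 binds Prc1 and citron kinase. Kif20a (on chromosome 18) had 10.29 with citalopram at day 7, against 10.96 in control, and 10.75 with citalopram at day 3, against 11.06 in control. Its differences were -0.68 and -0.31. Kif23 (chr9:61917277-61946810) had 10.55 with citalopram at day 7, against 11.17 in control, and 11.01 with citalopram at day 3, against 11.21 in control. Its differences were -0.62 and -0.20, and its 2 control arrays differed by only 0.03. Kif20b (chr19:34922335-34975750) had 9.14 with citalopram at day 7, against 9.72 in control, and 9.36 with citalopram at day 3, against 9.51 in control.

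Kif14 (chr1:136466301-136555938) had 8.45 with citalopram at day 7, against 8.98 in control, and 8.41 with citalopram at day 3, against 8.67 in control. It was the only one of the 10 whose lowest array was not citalopram at day 7; that array was the lowest for the other 9 and for 32.4% of all genes, and for Kif14 too after quantile normalization or median centring. Kif14 is also the only kinesin of the set with 2 features. The second, dimmer feature had 6.62 with citalopram at day 7, against 6.85 in control, and 6.75 with citalopram at day 3, against 6.69 in control. The brighter Kif14 feature gave differences of -0.53 at day 7 and -0.26 at day 3, whereas the dimmer one gave -0.23 and 0.06, so the direction at day 3 rests on the choice of feature.

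**Figure D2:**
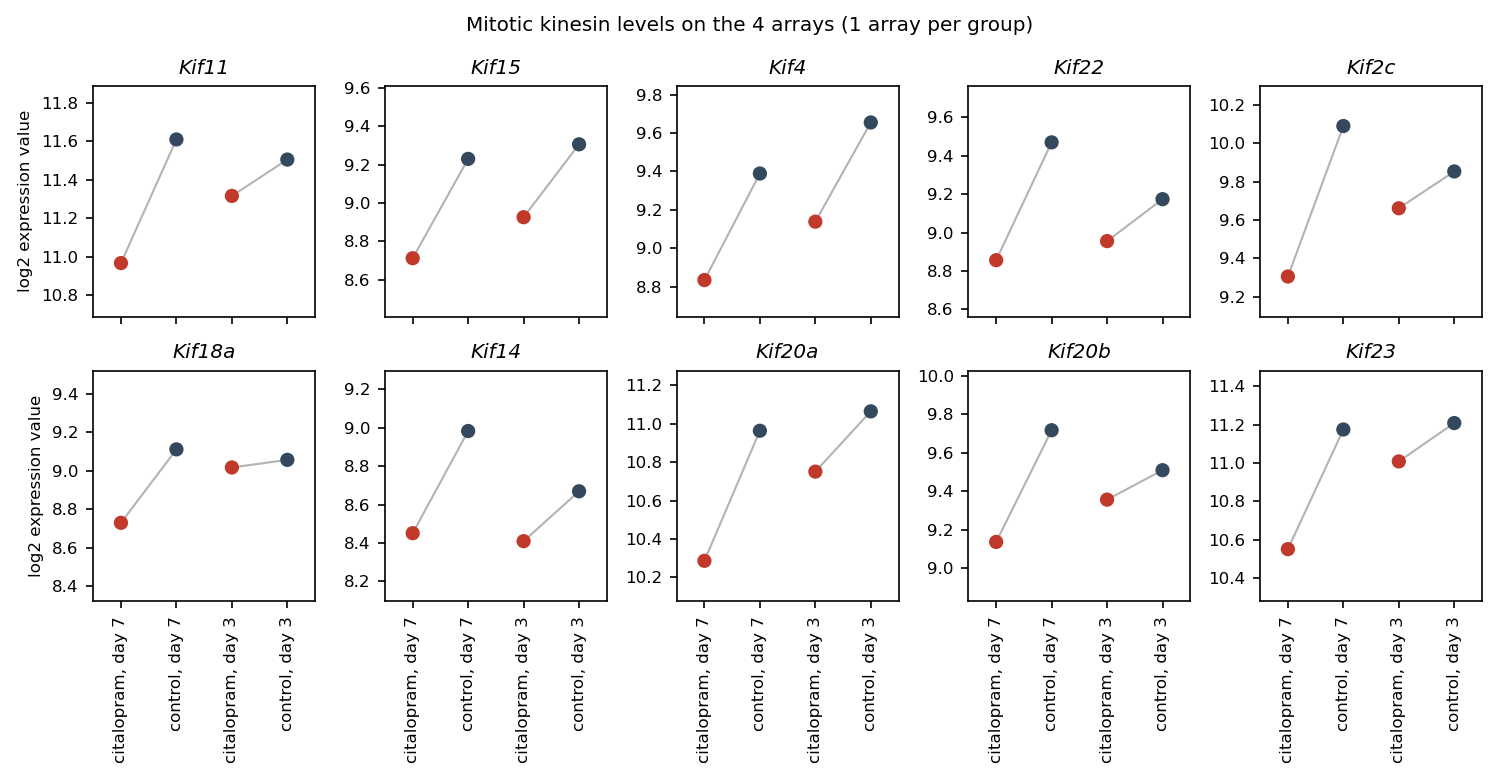
Deposited log2 expression value (y axis, the same span of 1.2 log2 units in every panel) of each mitotic kinesin on the citalopram (red) and control (dark) array of day 7 and of day 3, with 1 array per group and grey lines joining the arrays of a day. Red points lie below the dark point of the same day in all 10 panels, with the widest gap in Kif2c at day 7 and the narrowest in Kif18a at day 3.

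At day 7, 5 of the 10 kinesins were at least 1.5-fold lower with citalopram, against 0.945% of all genes: Kif2c (1.72-fold), Kif20a (1.60-fold), Kif11 (1.56-fold), Kif23 (1.54-fold) and Kif22 (1.53-fold). Kif22, at -0.6133, was the last inside this limit of 0.585 log2 units, and Kif20b, at -0.5815, was the first outside it. The other 4, Kif4, Kif14, Kif15 and Kif18a, were 1.47-fold, 1.45-fold, 1.43-fold and 1.30-fold lower. After quantile normalization or centring of each array on its median, 8 kinesins were past the limit, against 1.24% and 1.36% of all genes, and after cyclic loess 6 were, against 1.0%. At day 3, 0 of the 10 kinesins reached 1.5-fold, against 0.303% of all genes lower by that much. No kinesin was 2-fold lower at either day (0.0329% of all genes at day 7 and 0.0164% at day 3).

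The citalopram difference was more negative at day 7 than at day 3 in all 10 kinesins, as it was in 54.8% of all 11952 genes above the floor at both days. The gap between the days was widest in Kif2c (-0.59), Kif11 (-0.45), Kif20b (-0.43) and Kif23 (-0.42). It was narrowest in Kif4 (-0.04) and Kif15 (-0.14). In Kif4 the day 3 difference came to 93.1% of the day 7 difference on the log2 scale, in Kif15 to 73.4%, in Kif14 to 48.8% and in Kif20a to 46.3%. In the other 6 it came to between 10.4% (Kif18a) and 35.6% (Kif22). With 1 array per group the difference between the days leaves no residual degree of freedom and could not be tested.

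**Figure D3:**
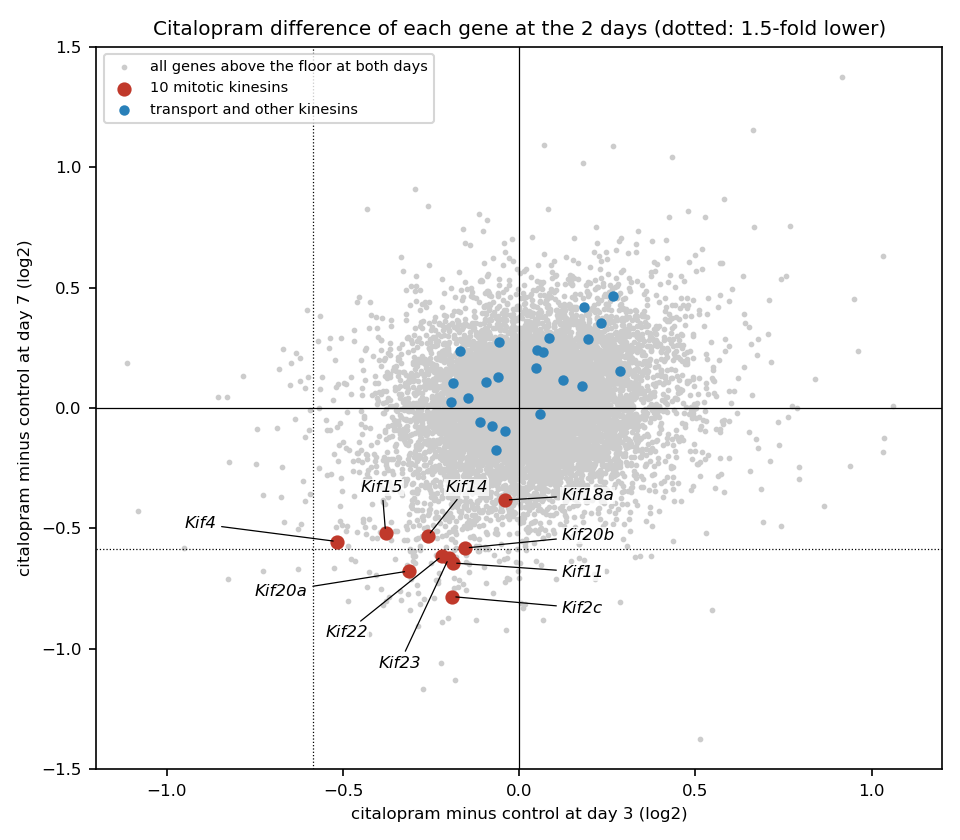
Log2 difference of citalopram minus control at day 3 (x axis) and at day 7 (y axis) for all genes above the floor at both days (grey), the transport and other kinesins (blue) and the 10 mitotic kinesins (red). The red points all lie in the lower left quadrant, from Kif18a (-0.04 and -0.38) to Kif4 (-0.52 and -0.55). Of these, 5 lie below the dotted line of 1.5-fold at day 7.

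With citalopram 9 of 10 kinesins were lower at day 7 than at day 3, with a median log2 difference of -0.30 (-0.04 over all genes), against 55.8% of all genes lower. Kif20a (-0.46), Kif23 (-0.46) and Kif2c (-0.36) had the lowest values, and Kif14 (0.04) was the exception. In control cultures 6 of 10 were higher at day 7, with a median of 0.08 (-0.01 over all genes), against 47.2% of all genes higher. Centring each array on its median moved the median of all genes by -0.155 with citalopram and by -0.11 in control, and under it all 10 kinesins were lower at day 7 with citalopram and 4 were higher in control, with a control median of -0.03. Without that centring Kif14 (0.31), Kif22 (0.30), Kif2c (0.24) and Kif20b (0.21) had the highest control values, and Kif4 (-0.27) and Kif20a (-0.10) the lowest. In 5 kinesins, Kif2c, Kif11, Kif18a, Kif20b and Kif22, the day 7 array was below the day 3 array with citalopram and above it in control, as in 19.1% of all genes; median centring left Kif2c, Kif20b and Kif22 and added Kif14. None of the 10 differed by 1.5-fold between the days, where 2.81% of all genes were that much lower with citalopram and 1.16% that much higher in control. The comparisons with citalopram and between days share arrays, so they are not independent of each other.

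A limma fit with additive terms for treatment and day, across 12415 genes, tested citalopram against control over the 4 arrays. It compares the treatments within each day and leaves 1 residual degree of freedom per gene, so days stand in for replicates. For citalopram, limma called 0 of the 10 kinesins and 0.0% of all genes at an adjusted p under 0.05; the kinesins' adjusted p lay between 0.312 (Kif4) and 0.688 (Kif18a). The fitted log2 effects were -0.54 ± 0.10 for Kif4, -0.50 ± 0.12 for Kif20a, -0.49 ± 0.15 for Kif2c, -0.45 ± 0.11 for Kif15 and -0.21 ± 0.12 for Kif18a (SE from limma, n = 4 arrays). At an unadjusted p under 0.05, 9 of the 10 were lower, all but Kif18a, against 3.69% of all genes. The calls depended on the scaling of the arrays. After quantile normalization limma called 4 kinesins lower, against 0.701% of all genes: Kif4 (adjusted p 0.014), Kif20a (0.0299), Kif15 (0.0403) and Kif2c (0.0449). Centring each array on its median gave Kif4 (limma's adjusted p 0.0186) and Kif20a (0.0374), against 0.564% of all genes, and cyclic loess gave Kif4 (limma's adjusted p 0.0437), against 0.177%.

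For the day effect over both treatments, limma called 0 of the 10 kinesins, against 1.49% of all genes called lower and 1.31% called higher. The kinesins' smallest adjusted p in that fit was 0.172, for Kif4, which was lower at day 7 by 0.28 ± 0.10 on the log2 scale (SE, n = 4 arrays). Kif20a followed, at an effect of -0.28 ± 0.12 and a limma adjusted p of 0.241; these 2 had an unadjusted p under 0.05, against 11.9% of all genes lower at day 7. After centring on array medians, limma called Kif4, Kif20a and Kif23 lower at day 7 (adjusted p 0.0166, 0.022 and 0.0388), against 16.6% of all genes.

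Of the kinesins outside the 10 that also act in mitosis, 5 were measured and 4 reached the floor. Cenpe, a kinetochore motor that moves chromosomes to the spindle equator, had 9.40 with citalopram at day 7, against 10.02 in control, and 9.69 with citalopram at day 3, against 9.98 in control. Kif18b, a regulator of astral microtubules, was lower by 0.52 at day 7 and by 0.06 at day 3 (log2), and Kif24, which acts at centrioles, by 0.38 and 0.30. Kif2a, a relative of Kif2c that is also used outside mitosis, was higher by 0.29 at day 7 and by 0.09 at day 3. Kif2b stayed below the floor on all 4 arrays.

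Transport and other kinesins, with light chains and adaptors, served as a family comparison, and not all of them carry cargo. Of 30 measured, 23 were above the floor at day 7, of which 18 were higher and 5 lower with citalopram (median over all 30 measured 0.11). At day 3, 24 were above it, 12 higher and 12 lower (median 0.02). Of the 23 above the floor at both days, 4 were lower at both (17.4%, against 22.0% of all genes). None differed by 1.5-fold at either day. Kif26b, a kinesin-like protein that lacks motor activity, differed by 0.47 at day 7 and 0.27 at day 3, and Kif21a, which limits microtubule growth, by 0.42 and 0.18. Kif5b, the ubiquitous conventional kinesin heavy chain, had 12.22 with citalopram at day 7, against 12.13 in control, and 12.33 with citalopram at day 3, against 12.15 in control. Both citalopram arrays lay below both control arrays in 2 of these 23 genes, against 11.6% of all genes. They lay above both control arrays in 8, a pattern whose share of all genes was not counted.

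Partners and regulators of the mitotic kinesins were lower at both days in 27 of 32 genes (84.4%, against 22.0% of all genes), and 14 were at least 1.5-fold lower at day 7, against 0.945% of all genes. Their median was -0.48 at day 7 and -0.23 at day 3. Racgap1, the partner of Kif23, had 10.34 with citalopram at day 7, against 11.13 in control, and 10.92 with citalopram at day 3, against 11.16 in control. Prc1, which bundles the midzone and binds Kif4 and Kif14, differed by -0.74 and -0.17, and Aurkb, the kinase that Kif20a carries and that regulates Kif2c, by -0.71 and -0.19. Cit, citron kinase, differed by -0.42 and -0.11. Tpx2, which binds Kif11 and Kif15 on the spindle, differed by -0.32 and -0.31, a near-equal pair as in Kif4. Shcbp1, which binds centralspindlin, was the lowest at day 3 (-0.73, with -0.68 at day 7). Higher at both days were Numa1, a spindle pole protein (0.21 and 0.17), the kinase Nek9 (0.12 and 0.09) and Psrc1, a spindle protein (0.01 and 0.05). limma called 0 of the 32 for citalopram (smallest adjusted p 0.252).

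Among 15 proliferation markers, 11 were lower at both days (73.3%, against 22.0% of all genes; median -0.40 at day 7 and -0.13 at day 3), and limma called 0 of them. Mki67, which coats mitotic chromosomes, differed by -0.40 and -0.13, and Top2a, which untangles DNA, by -0.49 at both days. Pcna, the sliding clamp of DNA replication, differed by only -0.04 and 0.01, and Ccnd1, cyclin D1 of G1 phase, was higher by 0.13 and 0.15. Of 21 genes for transcriptional control of the cell cycle, 11 were lower at both days (52.4%, against the same 22.0%; median -0.17 and -0.10). Foxm1, an activator of G2 and M genes, had 9.93 with citalopram at day 7, against 10.55 in control, and 10.26 with citalopram at day 3, against 10.47 in control. Mybl2, which encodes B-MYB, differed by -0.42 and -0.15, and the MuvB subunits Lin9, Lin54, Lin52 and Lin37 by -0.33, -0.28, -0.05 and 0.08 at day 7 and by -0.24, -0.18, -0.01 and 0.13 at day 3. The NF-Y subunits Nfya, Nfyb and Nfyc differed by -0.11, -0.16 and -0.23 at day 7 and by 0.18, -0.18 and 0.08 at day 3. In this list limma called 0 genes for citalopram.

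**Figure D4:**
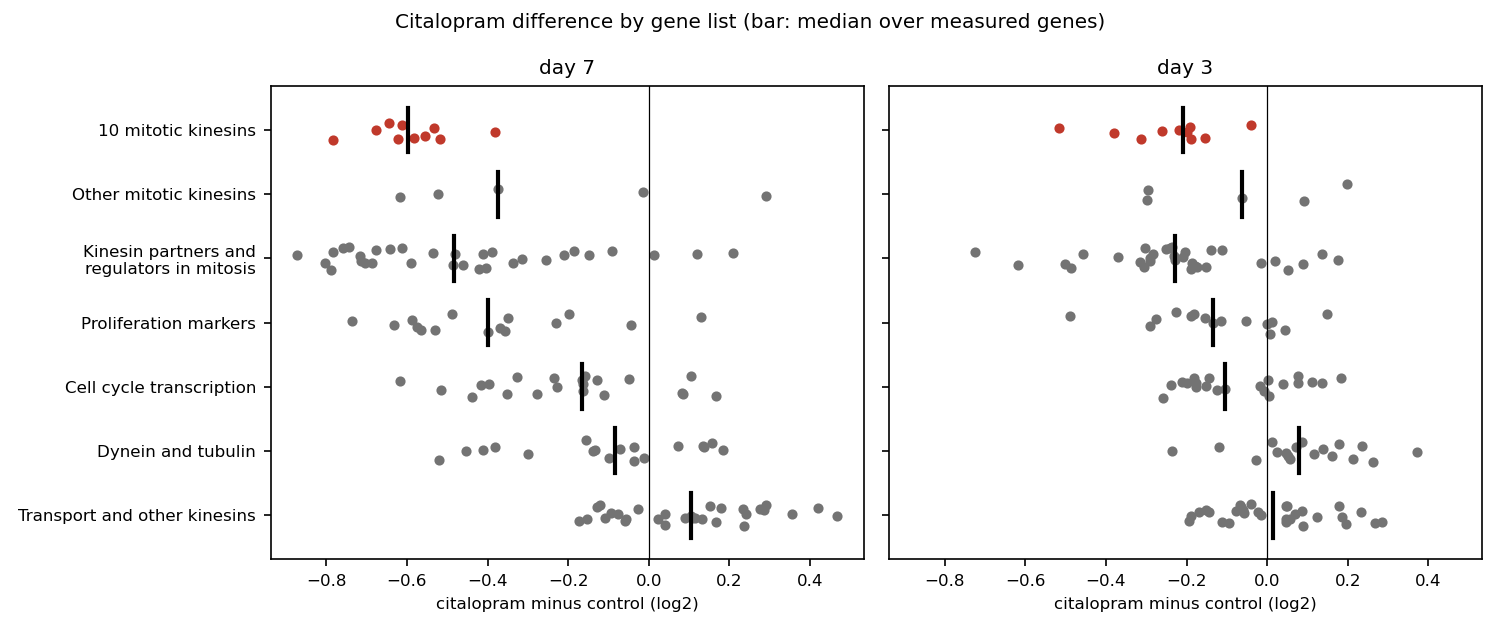
Log2 difference of citalopram minus control for each measured gene (points) at day 7 (left) and day 3 (right), by gene list, with black bars at the list medians. The 10 mitotic kinesins (red) lie between -0.78 and -0.38 at day 7 and between -0.52 and -0.04 at day 3, while the transport and other kinesins lie on both sides of 0.

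To find the genes with the most similar levels, each gene's mean over the 4 arrays was subtracted and the root mean square difference from the mean course of the 10 kinesins was taken over the 4 arrays, among 11554 other genes above the floor on every array. That mean course was -0.34 with citalopram at day 7, 0.25 in control at day 7, -0.07 with citalopram at day 3 and 0.17 in control at day 3. The 10 nearest genes were Cenpm (0.0125), Ckap2l (0.0204), Foxm1 (0.0205), Cenpe (0.0237), Mis18a (0.0239), Cmc2 (0.0252), Haspin (0.0265), Ncaph (0.0349), Plk1 (0.0351) and Cdc20 (0.0377), with the root mean square difference in log2 units in parentheses. Cenpm and Mis18a are centromere proteins, Haspin and Plk1 mitotic kinases, Ncaph a condensin subunit and Cdc20 an activator of the anaphase-promoting complex. Cmc2 is a mitochondrial assembly factor. Cenpm had 9.74 with citalopram at day 7, against 10.35 in control, and 10.01 with citalopram at day 3, against 10.24 in control. Among the kinesins themselves, Kif11 lay nearest to the mean course (0.0299) and Kif14 (0.140) and Kif4 (0.134) farthest. The likeness rests on 4 arrays and is a description.

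**Figure D5:**
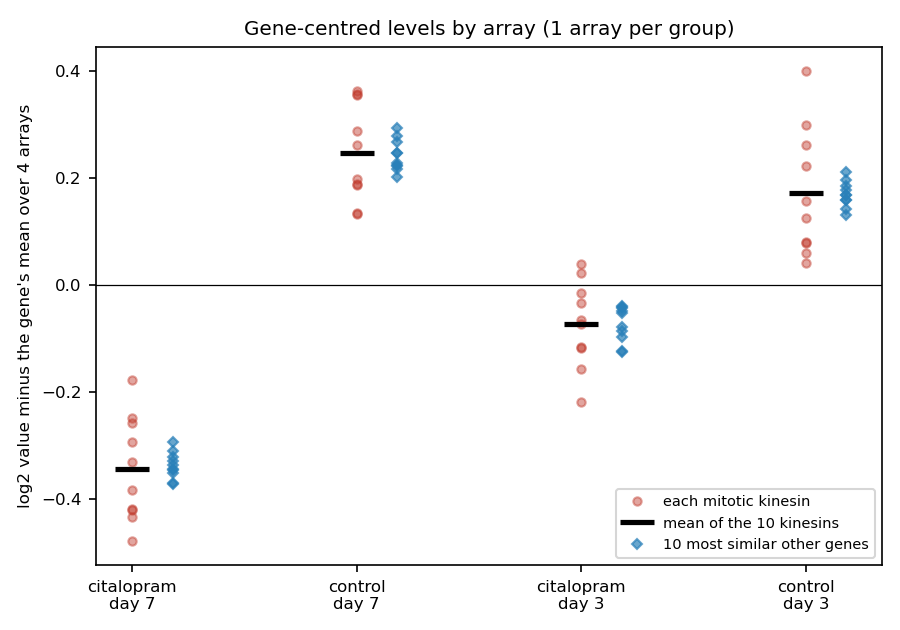
Log2 value minus the gene's own mean over the 4 arrays (y axis) for each mitotic kinesin (red circles), their mean (black bars) and the 10 most similar other genes (blue diamonds), by array. All kinesins lie below 0 with citalopram at day 7 (-0.48 to -0.18) and above 0 in control at day 7 (0.13 to 0.36), and they spread most in control at day 3 (0.04 to 0.40).

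As a check of the cell type, 9 of 10 measured osteoblast lineage markers were above the floor at day 7 and at day 3. Another 3 of the 13 listed, Runx2, Bglap and Spp1, were not analysed here. Sparc (osteonectin) lay between 13.8 and 14.1 on the 4 arrays, Prrx1, a mesenchymal transcription factor, between 13.0 and 13.4, and Sp7 (osterix) between 7.71 and 8.24. Alpl, counted among the 9, lay between 5.93 and 6.09 and reached the floor on only 2 of the 4 arrays. Ibsp, a late marker, was below the floor on all arrays. Endothelial markers were below it in 4 of 4 cases, and of 6 macrophage markers only Lyz2 and Cd68 reached it. Lyz2 differed by 0.47 at day 7 and 0.57 at day 3, while the leukocyte markers Ptprc and Csf1r stayed between 5.37 and 5.63. Of 4 chondrocyte markers, Sox9 and Col2a1 were above the floor on all 4 arrays, and Acan was on none. Sox9, a transcription factor of cartilage, had 10.78 with citalopram at day 7, against 10.50 in control, and 11.01 with citalopram at day 3, against 10.60 in control. Col2a1, a cartilage collagen, had 10.37 with citalopram at day 7, against 10.60 in control, and 9.89 with citalopram at day 3, against 9.37 in control. Their part in the kinesin differences was not tested. Of the epithelial markers Krt8 and Krt18 were above the floor on all arrays, of the adipocyte markers Cebpa, and of the myogenic markers Des; Krt8 reached 6.95, Krt18 6.22, Cebpa 6.34 and Des 7.69. Pparg reached the floor on 3 arrays, Myod1 on 2 and Col10a1 on 1, and the defining markers Epcam, Cdh1, Adipoq and Myog on none. Across 35556 features, Pearson's r between arrays was 0.986 to 0.995.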

How the data were processed

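The authors deposited a log2 value for each feature on each array, which was used unchanged. The log base was inferred from the range of 3.90 to 15.5. Per the submitters' processing notes Partek was used; how background, normalization and probe summaries were handled is not stated there. Array medians were 6.66 and 6.60 for citalopram and control at day 7, and 6.50 for both at day 3.

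Of 35556 features, 21789 carried 1 gene symbol, 1621 several and 12146 none; genes were named from the first kind. The 10 members' symbols matched RefSeq (GRCm38.p6) through Entrez numbers. All 10 were named, and every measured gene of 6 lists (other mitotic kinesins, transport and other kinesins, kinesin partners and regulators in mitosis, proliferation markers, cell cycle transcription, dynein and tubulin) and of cell type marker lists could be named. Of the listed symbols, 2 other mitotic kinesins, 2 transport kinesins, 2 partners, 3 dynein and tubulin genes and 3 osteoblast markers were not analysed. Among them Kif10, Kif1bp and Sgol1 are older names of Cenpe, Kifbp and Sgo1, which were measured. Kifc1, Tuba1b, Tuba1c and Tubb4b have features with several symbols only. Members and lists were chosen with earlier results of these data known. Differences were taken between arrays and set beside all genes. limma 3.58.1 in R 4.3.3 was used (lmFit, eBayes, two-sided, Benjamini-Hochberg over all genes tested). It was also run on simulated data. These held no day effect and the same citalopram effect at both days, so they do not check a fit where that effect changes. In the additive fit, limma's p-values rest on how far a gene's citalopram difference moved between the days, moderated by the same spread over all genes. Array noise, which may be technical, cannot be told apart from that movement. Other steps used Python 3.11.15 with pandas 2.3.3. Alternatives were 3 scalings, the mean of a gene's features, no floor or a floor at the 60th percentile, a 2-fold limit, eBayes with a trend and treatment alone. Precision is limited by having 4 arrays.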

Additional observations from a re-analysis of the deposited data

Results flagged for a closer look

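In 5 of the 10 kinesins the difference of day 7 minus day 3 ran in opposite directions in the treatments, with 1 array each, and the difference between treatments was not tested. For Kif2c it was -0.36 with citalopram and 0.24 in control (log2). Kif11 had -0.35 with citalopram and 0.10 in control, and Kif18a had -0.29 with citalopram and 0.05 in control. Kif20b gave -0.22 with citalopram and 0.21 in control, and Kif22 gave -0.10 with citalopram and 0.30 in control. The same pattern was present in 19.1% of all genes. When each array was centred on its median, Kif2c, Kif20b and Kif22 still showed it, and Kif11 and Kif18a did not. No group was large enough to look for an array far from its replicates.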

How the results depend on the processing

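The citalopram medians of the 10 kinesins kept their direction under every alternative run, from -0.65 to -0.60 at day 7 and from -0.23 to -0.20 at day 3. The count past 1.5-fold at day 7 was 8 after quantile normalization and after median centring, and 0 at 2-fold. Under median centring the control median for day 7 minus day 3 turned to -0.03. Kif20a (-0.62) and Kif23 (-0.61) then passed 1.5-fold lower with citalopram at day 7 against day 3. That centring moved the median of all genes by -0.155 in this comparison, and the share of all genes past 1.5-fold was not counted. For citalopram limma called 139, 40 and 103 genes and 4, 1 and 2 kinesins after quantile normalization, cyclic loess and median centring, and 7 genes and 0 kinesins with the 60th percentile floor. For the day, these settings in the same order gave 1544, 1018, 2294 and 744 genes, and no floor gave 190. Median centring gave 3 kinesins called lower for the day, against 16.6% of all genes. It gave 4 at limma's unadjusted p under 0.05, for which the share of all genes was not counted. The cause was not tested. With treatment alone, limma's adjusted p was 1.0 for every kinesin. In that fit 8 had an unadjusted p under 0.05, and the share of all genes was not counted. The additive fit pairs the treatments within each day; a block by replicate number could not be made, since each group has 1 array, and no array can be left out.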

Other observations

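The tracks and the opposite motor were measured beside the kinesins, in a list of 18 dynein and tubulin genes of which 16 were above the floor. At day 7, 11 of the 16 were lower with citalopram, against 48.7% of all genes (median over the 18 measured -0.08), and at day 3, 2 were, against 42.3% of all genes (median 0.08). Tubb6, a beta-tubulin, had 11.33 with citalopram at day 7, against 11.85 in control, and 11.96 with citalopram at day 3, against 11.90 in control. Tubg1, the gamma-tubulin that nucleates microtubules, differed by -0.45 at day 7 and 0.01 at day 3. Tubb2b had differences of -0.41 and 0.37, and Tuba1a of -0.38 and 0.24. Closely similar tubulin copies can share probes, which makes each tubulin value uncertain. Dync1h1, the heavy chain of cytoplasmic dynein, was higher at day 7 than at day 3, by 0.85 with citalopram and 0.91 in control. limma called it higher for the day (adjusted p 0.00617), as it did 1.31% of all genes. Between citalopram and control Dync1h1 differed by 0.16 at day 7 and 0.21 at day 3. Nde1, which binds dynein, had differences of -0.30 and -0.24. For citalopram limma called 0 of the 16 (smallest adjusted p 0.500; 1 had an unadjusted p under 0.05).

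Birc5, which encodes survivin of the Aurora B complex, was the 1 of 32 kinesin partners called for the day (limma adjusted p 0.0475). Over all genes, limma called 1.31% higher and 1.49% lower for the day, so this count says nothing about the partners as a list. Birc5 was higher at day 7 by 0.59 with citalopram and 0.45 in control. With citalopram it was lower than control by 0.48 at day 7 and by 0.62 at day 3.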
